A study of Mus musculus with 8 samples.

Results

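The genes described here make prostaglandins and prostacyclin or receive them, and were followed in mouse hepatic stellate cells in 4 states. They were chosen by gene symbol and number 8, of which 7 are among the 22180 genes compared in the series. The 8 are the synthase genes Ptgs1, Ptgs2, Ptges, Ptgis and Ptgds and the receptor genes Ptger2, Ptger4 and Ptgfr. The platform annotation used here gave no probe set the symbol Ptgs1, so that gene is not analysed here and 7 members were measured, each by a single probe set that carries no other symbol. Primary hepatic stellate cells, liver pericytes that store vitamin A, came from BALB/c mice in all groups. Cultured cells were quiescent cells kept for 10 days on plastic dishes in medium with serum. Cells activated in the animal came unseeded from fibrotic livers after carbon tetrachloride (CCl4), a hepatotoxin, had been given for 4 weeks or for 2 weeks. Quiescent cells came from healthy mice and were lysed unseeded, at 0 hours. Each group had 2 arrays, 8 in all. A protocol text shared by every sample speaks of valproic acid at 2.5 mM after seeding, which no title or treatment label names, so whether the cultured cells received it is unknown here and its part in any culture value was not tested. The age and sex of the mice, the dose of CCl4 and whether animals were pooled are not given in the sources used here.

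Prostanoids are local lipid signals made from arachidonic acid, which cytosolic phospholipase A2 frees from membranes. A cyclooxygenase, either the constitutive enzyme encoded by Ptgs1 or the inducible one encoded by Ptgs2, turns arachidonic acid into prostaglandin H2, and terminal synthases then make prostaglandin E2 (Ptges), prostacyclin (Ptgis) or prostaglandin D2 (Ptgds). The products act on receptors of the same or nearby cells, among them the cAMP-raising prostaglandin E2 receptors EP2 (Ptger2) and EP4 (Ptger4) and the prostaglandin F receptor (Ptgfr), and are then taken up and oxidised. In the liver, stellate cells are known as both a source and a target of prostaglandins, which act on their contraction and growth.

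Levels are log2 RMA values as the authors deposited them, so a step of 1 is a doubling, and changes are log2 fold changes ± standard error (SE) from limma fitted to all 8 arrays (n = 2 arrays per group). A gene was called where its Benjamini-Hochberg adjusted p over all 22180 genes was under 0.05, and only then is it said to have risen or fallen. Probe sets differ in brightness, so levels are compared between groups and not between genes. As a guide to background, the median level of 1394 odorant and vomeronasal receptor genes was 3.23 and their 95th percentile 4.69, a comparison chosen after the data were seen.

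The arrays carried the markers of stellate cells, and also those of other liver cells in amounts that differed between groups. The mean of 11 activation markers, such as Acta2 and Col1a1, was 10.74 and 10.69 in cultured cells, 10.60 and 10.64 at 4 weeks of CCl4, 10.76 and 10.73 at 2 weeks, and 7.46 and 8.0 in quiescent cells. These means hid differences between single markers. In culture 3 of the 11 were called higher than after CCl4 and 5 lower, beside 12.6% and 8.72% of all genes. The mean of 14 quiescent stellate markers, such as Lrat and Reln, was 7.10 and 6.94 in culture, 9.82 and 9.87 at 4 weeks, 9.69 and 9.82 at 2 weeks, and 10.40 and 10.60 in quiescent cells. The mean of 12 hepatocyte markers stood at 4.89 and 5.07 in culture, 6.64 and 6.38 at 4 weeks, 7.20 and 7.79 at 2 weeks and 9.72 and 8.53 in quiescent cells, and that of 11 sinusoidal endothelial markers at 5.29 and 4.90, 6.76 and 7.12, 7.43 and 7.78, and 9.72 and 8.57 in the same order of groups. The mean of 12 macrophage markers was 6.49 and 6.66 in culture, 6.32 and 6.34 at 4 weeks, 7.79 and 8.11 at 2 weeks, and 7.98 and 8.24 in quiescent cells, and that of 8 neutrophil and monocyte markers ran from 4.75 to 4.77, 6.01 to 6.34, 6.28 to 6.88, and 5.94 to 7.13. Of the markers of rarer cells, 6 of 8 for mast cells, 4 of 8 for lymphocytes, 3 of 8 for mesothelial cells and 3 of 7 for platelets lay at or under 4.69 in every group, and the means of these 4 lists lay between 3.68 and 5.17 on all arrays. The quiescent pair differed most within a group, with 565 genes over 2-fold apart, against 158 in culture, 56 at 4 weeks and 117 at 2 weeks.

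**Figure D1:**
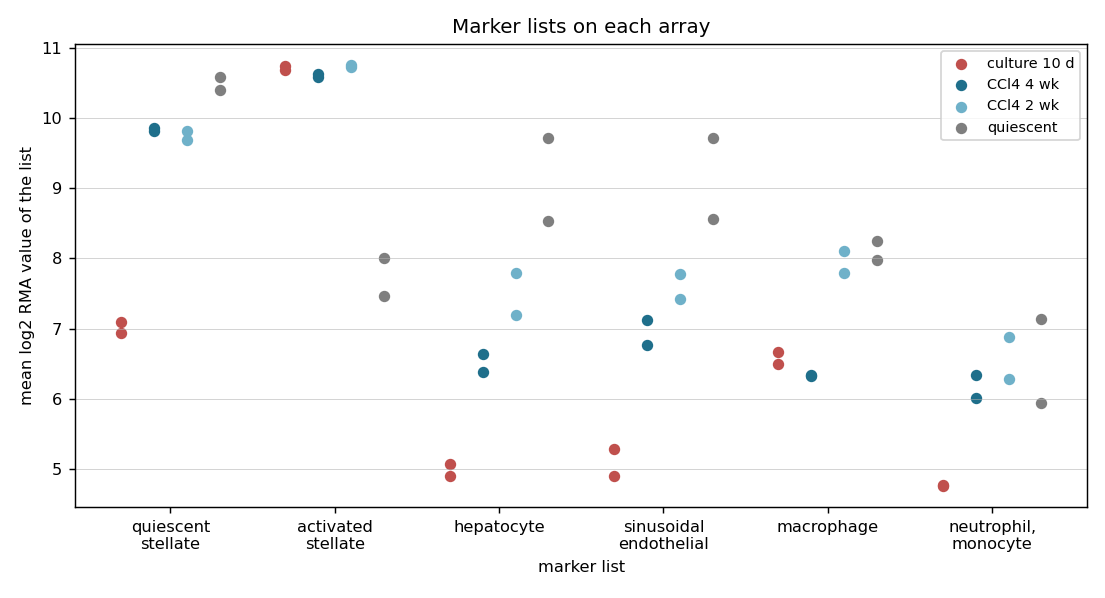
Mean log2 RMA value (vertical axis) of 6 marker lists (horizontal axis) on each of the 8 arrays, 1 point per array, coloured by group. Hepatocyte and endothelial lists were lowest in culture (4.89 to 5.29) and highest in quiescent cells (8.53 to 9.72), and macrophage markers were lower at 4 weeks of CCl4 (6.32 and 6.34) than at 2 weeks (7.79 and 8.11).

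Ptgs2 rose and Ptger2 fell in each of the activated groups. Ptger4 rose after CCl4 at both times and Ptgis at 4 weeks, and both were lower in cultured cells than in CCl4 cells. Ptges, Ptgds and Ptgfr were not called in any of the 5 comparisons, with 0.132 the smallest of their adjusted p-values. In culture 1 member rose and 1 fell, where 23.2% of all genes were called (12.9% higher and 10.3% lower). At 4 weeks of CCl4, 3 members rose and 1 fell against a background of 8.71% (4.04% higher and 4.67% lower). At 2 weeks 2 rose and 1 fell against 4.77% (2.34% higher and 2.43% lower). The comparisons with quiescent cells share the same 2 quiescent arrays. The 4-week rises numbered 1 without either 4-week array, and the 2-week rises 1 without either 2-week or either 4-week array. The falls in culture numbered 2 without quiescent replicate 1 or culture replicate 2. The median change of the 7 members was -0.15 in culture, 0.43 at 4 weeks and 0.24 at 2 weeks, beside 0.01, -0.0019 and 0.0040 over all genes.

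**Figure D2:**
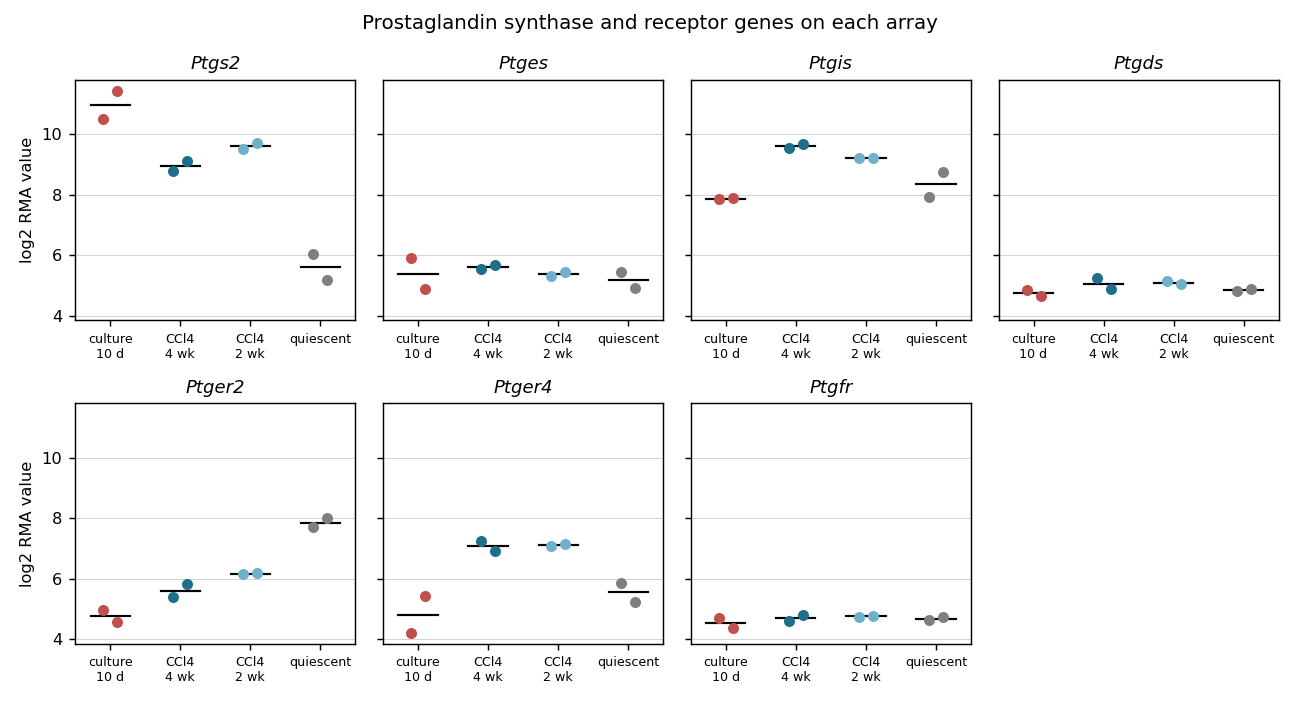
Log2 RMA value (vertical axis) of the 7 measured members on each array, by group, with a point per array and a line at the mean of each pair. All 6 activated arrays lay above the quiescent arrays for Ptgs2 (8.79 to 11.43 against 6.04 and 5.16) and below them for Ptger2 (4.59 to 6.20 against 7.72 and 8.0).

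Among the synthases, Ptgs2, the inducible cyclooxygenase gene, had the largest change of the 7 members. Its promoter window in RefSeq is shown because this gene carries the main rise: it covers 250 bases before to 50 after the annotated start, on GRCm38.p6, chr1:150099781-150100080, plus strand. Capitals mark a match to TGACG on the minus strand (bases 14 to 18 after the start) (the core of the cAMP response element) and a match to CACGTG, an E-box (bases 17 to 22), which overlap by 2 letters.
Ptgs2: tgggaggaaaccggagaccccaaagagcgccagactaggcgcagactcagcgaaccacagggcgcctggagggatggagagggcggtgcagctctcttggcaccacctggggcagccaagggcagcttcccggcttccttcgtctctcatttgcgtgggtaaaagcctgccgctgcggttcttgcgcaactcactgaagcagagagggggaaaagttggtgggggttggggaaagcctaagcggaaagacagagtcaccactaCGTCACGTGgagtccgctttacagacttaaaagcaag
Of 32851 such RefSeq windows, 20.8% hold TGACG and 7.15% hold CACGTG on either strand, so neither match is rare. Of the other motifs searched on both strands, the TATA box TATAAA is found in 13.6% of the windows. The AP-1 motif TGANTCA is found in 7.81% of them. The TEAD motif GGAATG is found in 14.7%, and these 3 are not among the letters of the Ptgs2 window.

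Ptgs2 stood at 10.51 and 11.43 in cultured cells, 8.79 and 9.10 in 4-week CCl4 cells, 9.49 and 9.71 in 2-week CCl4 cells, and 6.04 and 5.16 in quiescent cells. The 4 groups did not overlap, and from high to low they ran culture, 2 weeks, 4 weeks and quiescent. Ptgs2 rose 41.3-fold in culture (5.37 ± 0.34, adjusted p = 1.1e-05), 10.1-fold at 4 weeks (3.34 ± 0.34, adjusted p = 0.000749) and 16-fold at 2 weeks (4.00 ± 0.34, adjusted p = 0.000505). Cultured cells lay 3.24-fold above the mean of both CCl4 groups (1.70 ± 0.30, adjusted p = 0.00344). The neighbours 4 weeks and 2 weeks differed by -0.66 ± 0.34, with a 95% interval from -1.44 to 0.11 (adjusted p = 0.711). The rise in each activated group and the excess in culture were called in all 8 fits that left out 1 array, with the culture change between 4.91 and 5.83. In the groups in which Ptgs2 rose, the hepatocyte and endothelial marker means lay below those of both quiescent arrays.

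Ptgis, which encodes prostacyclin synthase, rose at 4 weeks of CCl4 and was lower in cultured than in CCl4 cells. It stood at 7.84 and 7.90 in cultured cells, 9.55 and 9.67 at 4 weeks of CCl4, 9.19 and 9.20 at 2 weeks, and 7.92 and 8.75 in quiescent cells. All 4 CCl4 arrays lay above, and both cultured arrays below, the quiescent pair, whose arrays were 0.83 apart. Ptgis rose 2.42-fold at 4 weeks (1.28 ± 0.24, adjusted p = 0.0123). The change was 0.87 ± 0.24 at 2 weeks (adjusted p = 0.0839) and -0.47 ± 0.24 in culture (adjusted p = 0.217). It was lower in cultured cells than in CCl4 cells by 1.54 ± 0.21 on the log2 scale (adjusted p = 0.000818), and this was called in all 8 fits with 1 array left out, at -1.57 to -1.51. The comparisons with quiescent cells leaned on single arrays. The 4-week call was lost without 4-week replicate 1 (adjusted p = 0.0781) or 2 (adjusted p = 0.0942), when p-values were adjusted over all probe sets (adjusted p = 0.0517) and in a fit of the 4 arrays compared (adjusted p = 0.0593). Without quiescent replicate 2 the 2-week change was 1.28 (adjusted p = 0.00254), and without quiescent replicate 1 the culture change was -0.88 (adjusted p = 0.00611). Quiescent replicate 1 also had the higher hepatocyte and endothelial marker means (9.72 and 9.72, against 8.53 and 8.57 in replicate 2), and their part in the Ptgis level was not tested.

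Ptges and Ptgds, the genes of the inducible prostaglandin E synthase and of the lipocalin-type prostaglandin D synthase, lay near the guide to background and passed no test. Ptges stood at 5.90 and 4.88 in culture, 5.54 and 5.69 at 4 weeks, 5.32 and 5.43 at 2 weeks, and 5.44 and 4.93 in quiescent cells, so that the cultured pair spanned all other arrays. Its change in culture was 0.21 ± 0.30, with a 95% interval from -0.48 to 0.89, which leaves room for nearly a doubling. At 4 and 2 weeks it was 0.43 ± 0.30 and 0.19 ± 0.30 (adjusted p = 0.52 and 0.845). Ptgds ranged from 4.64 to 5.23 over the 8 arrays, and its largest difference, between culture and CCl4, was -0.34 ± 0.14 (adjusted p = 0.132). The mean over the 8 arrays was 5.39 for Ptges and 4.94 for Ptgds, above 98.1% and 96.2% of the guide genes. Both means lay above the guide's 95th percentile, while the lowest Ptgds value, 4.64, lay under it. With signals this near the guide, the sizes of these changes are not exact.

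**Figure D3:**
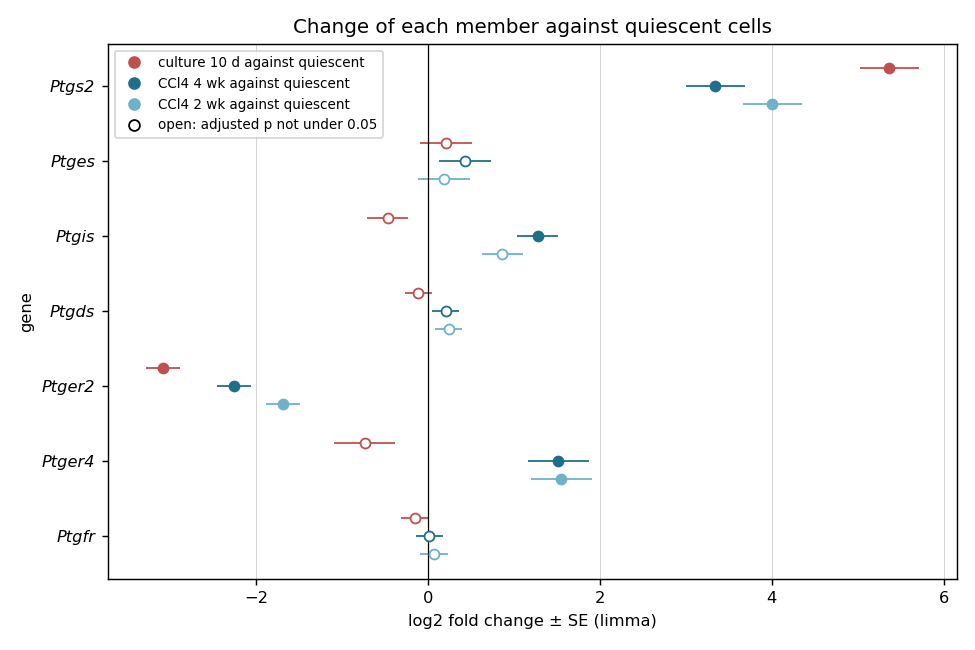
Log2 fold change ± SE (horizontal axis) of each member against quiescent cells in culture and at 4 and 2 weeks of CCl4, from the limma fit, with open points where the adjusted p was not under 0.05. Ptgs2 lies to the right (3.34 to 5.37) and Ptger2 to the left (-3.08 to -1.68) in all 3 comparisons. Ptger4 and Ptgis lie right of 0 after CCl4 and left of it in culture. The culture points of both and the 2-week point of Ptgis are open.

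Of the receptors, Ptger2 and Ptger4 both encode cAMP-raising receptors for prostaglandin E2, and after CCl4 they changed in opposite directions. Their RefSeq promoter windows are printed because the 2 genes share a ligand and a coupling but not a pattern. Both are from GRCm38.p6, Ptger2 from chr14:44987861-44988160 on the plus strand and Ptger4 from chr15:5244138-5244437 on the minus strand. Neither holds any of the 5 motifs named above, so no letters are in capitals.
Ptger2: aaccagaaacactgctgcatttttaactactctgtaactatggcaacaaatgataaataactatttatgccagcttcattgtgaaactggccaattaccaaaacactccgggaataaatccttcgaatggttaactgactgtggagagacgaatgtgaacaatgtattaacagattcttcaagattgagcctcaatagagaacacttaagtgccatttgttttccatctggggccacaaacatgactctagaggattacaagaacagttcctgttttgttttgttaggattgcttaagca
Ptger4: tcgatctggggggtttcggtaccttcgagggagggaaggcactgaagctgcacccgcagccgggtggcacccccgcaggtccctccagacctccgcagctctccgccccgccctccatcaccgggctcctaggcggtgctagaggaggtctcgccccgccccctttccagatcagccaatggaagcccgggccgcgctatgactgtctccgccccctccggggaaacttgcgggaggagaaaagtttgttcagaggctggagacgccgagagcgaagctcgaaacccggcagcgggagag
The absence of these letters from a window of 300 bases says nothing about the factors that bind elsewhere.

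Ptger2 stood at 4.98 and 4.59 in cultured cells, 5.39 and 5.81 at 4 weeks of CCl4, 6.15 and 6.20 at 2 weeks, and 7.72 and 8.0 in quiescent cells. The groups did not overlap and ran, from high to low, quiescent, 2 weeks, 4 weeks and culture. In culture the signal was close to the 4.69 of the guide, with culture replicate 2 under it. The sizes of the differences from culture are therefore not exact. Ptger2 fell by 3.08 ± 0.20 on the log2 scale in culture (adjusted p = 1.18e-05), by 2.26 ± 0.20 at 4 weeks (adjusted p = 0.000387) and by 1.68 ± 0.20 at 2 weeks (adjusted p = 0.00278), which is 8.44-fold, 4.77-fold and 3.21-fold lower. It was lower in culture than after CCl4 (-1.11 ± 0.17, adjusted p = 0.00183). Between 4 and 2 weeks the difference was -0.57 ± 0.20 with an unadjusted p of 0.0186, and it did not pass (adjusted p = 0.466). These 4 calls were kept in all 8 fits with 1 array left out. The hepatocyte and endothelial marker means ran in the same order of groups, with the hepatocyte mean at 4.89 and 5.07 in culture and 9.72 and 8.53 in quiescent cells. Within the quiescent pair, replicate 2 had the higher Ptger2 value and the lower hepatocyte and endothelial means. The quiescent stellate marker mean was also lowest in culture (7.10 and 6.94) and highest in quiescent cells (10.40 and 10.60). The part of any of these cell types in the Ptger2 signal was not tested, and in bulk RNA fewer cells of a type and less RNA per cell cannot be told apart.

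Ptger4 stood at 4.22 and 5.42 in cultured cells, 7.23 and 6.91 at 4 weeks of CCl4, 7.08 and 7.14 at 2 weeks, and 5.86 and 5.24 in quiescent cells. All 4 CCl4 arrays lay above the other 4, while cultured and quiescent arrays overlapped. Ptger4 rose 2.86-fold at 4 weeks (1.52 ± 0.36, adjusted p = 0.0324) and 2.93-fold at 2 weeks (1.55 ± 0.36, adjusted p = 0.0443), with -0.73 ± 0.36 in culture (adjusted p = 0.194). It was 4.82-fold lower in cultured than in CCl4 cells (-2.27 ± 0.31, adjusted p = 0.000891), a call kept in all 8 fits with 1 array left out, at -1.67 without culture replicate 1 and -2.87 without culture replicate 2. The 2 calls against quiescent cells were less firm. With the replicate number as a block their adjusted p were 0.0532 at 4 weeks and 0.0698 at 2 weeks. When p-values were adjusted over all probe sets, they were 0.105 and 0.145. The 4-week call was lost without quiescent replicate 2, either 2-week or either 4-week array (adjusted p 0.063 to 0.206), and the 2-week call without quiescent replicate 2, either 2-week or either 4-week array (adjusted p 0.0827 to 0.213). The culture change was -1.34 (adjusted p = 0.0146) without culture replicate 2. Of 12 macrophage markers, 4 were called lower at 4 weeks than at 2 and 0 higher, beside 0.0586% and 0.0271% of all genes. The macrophage marker means were 6.32 and 6.34 at 4 weeks and 7.79 and 8.11 at 2 weeks. Ptger4 differed by -0.04 ± 0.36 between these times (95% interval -0.85 to 0.77), and the part of macrophages in its signal was not tested. The value of culture replicate 1, 4.22, lay under the 4.69 of the guide, so the sizes of the differences from culture are not exact.

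Ptgfr, the prostaglandin F receptor gene, gave no signal that could be told from background. Its values ran from 4.37 to 4.81 over the 8 arrays, with a mean of 4.67 that lay under the guide's 95th percentile. Its changes were -0.15 ± 0.16 in culture, 0.02 ± 0.16 at 4 weeks and 0.07 ± 0.16 at 2 weeks, and the 95% intervals of all 3 lay between -0.51 and 0.43.

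Between 4 and 2 weeks of CCl4, limma called 0 of the 7 members, and 1 had an unadjusted p under 0.05. That member was Ptger2. Over all genes 0.0857% were called in this comparison (0.0271% higher and 0.0586% lower). Between culture and CCl4, 1 member was higher and 3 were lower in culture, against 21.3% of all genes called (12.6% higher and 8.72% lower).

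Beyond the members, 47 other genes of eicosanoid metabolism from 5 lists were measured, of 56 listed. In culture 8 rose and 5 fell, at 4 weeks of CCl4 2 rose and 6 fell, at 2 weeks 3 rose and 3 fell, and 1 was lower at 4 weeks than at 2. Over all genes the shares called in these comparisons were 23.2%, 8.71%, 4.77% and 0.0857%. Of the comparisons with quiescent cells, that of culture had the most calls among the listed genes and among all genes. Between culture and the mean of both CCl4 groups, 10 listed genes were higher and 6 lower in culture, beside 12.6% and 8.72% of all genes. The genes named from each list are those called with the smallest p, at most 4 in a comparison.

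Upstream of the cyclooxygenases, 17 lipase genes were measured, not all of which encode enzymes that free arachidonic acid. Pla2g4a, which encodes cytosolic phospholipase A2, stood at 8.31 and 8.70 in culture, 7.77 and 7.33 at 4 weeks, 7.16 and 7.33 at 2 weeks, and 5.62 and 5.78 in quiescent cells. All activated arrays lay above the quiescent ones, and both cultured arrays above all others. It rose 7-fold in culture (2.81 ± 0.20, adjusted p = 1.77e-05), 3.6-fold at 4 weeks (1.85 ± 0.20, adjusted p = 0.000874) and 2.92-fold at 2 weeks (1.54 ± 0.20, adjusted p = 0.00414), and these calls were kept in all 8 fits with 1 array left out. In the RefSeq gene table of GRCm38.p6, no protein-coding gene lies between Pla2g4a and Ptgs2 on chromosome 1. Mgll, the monoacylglycerol lipase gene, fell by 1.43 ± 0.20 at 4 weeks and by 1.34 ± 0.20 at 2 weeks on the log2 scale (adjusted p = 0.00353 and 0.00783), with -0.33 ± 0.20 in culture. Dagla, a diacylglycerol lipase gene, fell in culture (-1.75 ± 0.26, adjusted p = 0.00127), and Pla2g7, which encodes a platelet-activating factor hydrolase, fell in culture (-2.15 ± 0.34) and at 4 weeks (-1.70 ± 0.34, adjusted p = 0.0019 and 0.0177). Pla2g15, a lysosomal phospholipase gene, rose in culture by 0.79 ± 0.18 (adjusted p = 0.0121). Among all genes, 12.9% rose and 10.3% fell in culture, 4.04% and 4.67% at 4 weeks, and 2.34% and 2.43% at 2 weeks. Beside this, the list of 17 gave 2 rises and 2 falls in culture, 1 rise and 2 falls at 4 weeks, and 1 rise and 1 fall at 2 weeks. The list's median changes were -0.02, -0.04 and -0.12. With Pla2g15 lost, the culture rises numbered 1 in the fits that left out quiescent replicate 2 or culture replicate 2, and the 4-week falls 1 without 4-week replicate 1, where Pla2g7 was lost. The 2-week fall of Mgll was lost without 2-week replicate 1 or 2 (adjusted p = 0.0547 and 0.0578). The 2-week falls numbered 2 without either quiescent or either culture array.

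**Figure D4:**
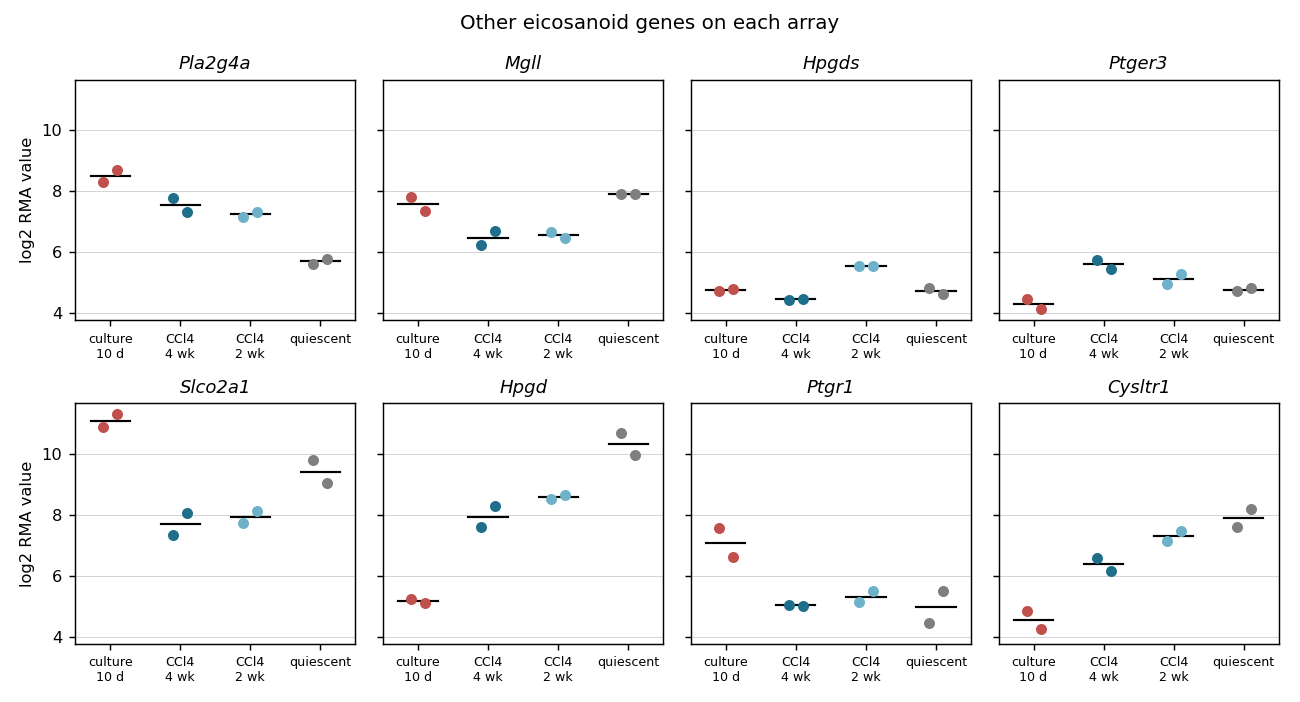
Log2 RMA value (vertical axis) of 8 other eicosanoid genes on each array, by group, with a point per array and a line at the mean of each pair. Pla2g4a was higher on all 6 activated arrays (7.16 to 8.70 against 5.62 and 5.78) and Hpgd lower (5.12 to 8.65 against 9.97 and 10.67), while Slco2a1 was above the quiescent pair in culture and below it after CCl4.

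Of 7 other synthase genes measured, 2 rose in culture, where 12.9% of all genes rose. At 4 weeks of CCl4 1 fell, beside 4.67% of all genes, and at 2 weeks 1 rose, beside 2.34%. Hpgds, which encodes the prostaglandin D synthase of blood cells, stood at 4.72 and 4.80 in culture, 4.45 and 4.47 at 4 weeks of CCl4, 5.57 and 5.56 at 2 weeks, and 4.84 and 4.63 in quiescent cells. It was high only on the 2-week arrays, where it rose by 0.83 ± 0.14 (adjusted p = 0.0116), and it was lower at 4 weeks than at 2 (-1.11 ± 0.14, adjusted p = 0.0344). Both 4-week values and the value of quiescent replicate 2, 4.63, lay under the guide's 4.69, so the sizes of both differences are not exact. The 2-week rise was lost without 2-week replicate 1 or 2 (adjusted p = 0.0809 and 0.0574). The 4-week difference was lost with the replicate block (adjusted p = 0.0633), and without either culture, either 2-week or either 4-week array (adjusted p 0.0716 to 0.372). The macrophage marker means given above were also higher at 2 weeks than at 4, and their part in the Hpgds signal was not tested. Prxl2b, a prostamide and prostaglandin F synthase gene, and Ptges2, another prostaglandin E synthase gene, rose in culture by 0.65 ± 0.15 and 0.51 ± 0.15 (adjusted p = 0.0145 and 0.0402). Prxl2b was lost without quiescent replicate 1 or culture replicate 1 (adjusted p = 0.0711 and 0.105), and Ptges2 without either quiescent, either culture or either 2-week array (adjusted p 0.0581 to 0.176). Cbr1, a carbonyl reductase gene, fell at 4 weeks by 1.15 ± 0.16 on the log2 scale (adjusted p = 0.00308).

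Of 5 other receptor genes measured, 3 were lower in culture than after CCl4 and 0 higher, beside 8.72% and 12.6% of all genes, and with 1 array left out 2 to 4 were lower. Ptger3, the gene of the cAMP-lowering prostaglandin E2 receptor EP3, stood at 4.46 and 4.14 in culture, 5.76 and 5.47 at 4 weeks, 4.98 and 5.28 at 2 weeks, and 4.74 and 4.82 in quiescent cells. It rose at 4 weeks (0.83 ± 0.18, adjusted p = 0.0226). The change was 0.35 ± 0.18 at 2 weeks and -0.48 ± 0.18 in culture. It was lower in culture than after CCl4 (-1.07 ± 0.15, adjusted p = 0.00121). Its mean in culture, 4.30, was under the guide's 4.69, so the sizes of the differences from culture are not exact. The 4-week call was lost without quiescent replicate 1 or either 4-week array (adjusted p 0.0612 to 0.17). Ptgir, the prostacyclin receptor gene, fell in culture (-0.87 ± 0.19, adjusted p = 0.00975), with -0.16 ± 0.19 at 4 weeks and -0.36 ± 0.19 at 2 weeks, where Ptgis was at 1.28 and 0.87. The culture call of Ptgir was lost without culture replicate 2 (adjusted p = 0.075). Ptgfrn, which encodes a membrane protein that inhibits the prostaglandin F receptor, rose at 2 weeks (1.09 ± 0.25, adjusted p = 0.0476), a call lost in 7 of the 8 fits with 1 array left out (all but that without quiescent replicate 2, adjusted p 0.0719 to 0.205), and was lower in culture than after CCl4 (-1.38 ± 0.22, adjusted p = 0.00218).

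Of 7 measured genes of prostaglandin uptake and breakdown, 3 rose and 1 fell in culture, beside 12.9% and 10.3% of all genes. Hpgd, the dehydrogenase that takes the first step of prostaglandin inactivation, stood at 5.26 and 5.12 in culture, 7.60 and 8.29 at 4 weeks, 8.52 and 8.65 at 2 weeks, and 10.67 and 9.97 in quiescent cells. The groups did not overlap. Hpgd fell by 5.14 ± 0.27 on the log2 scale in culture (35.2-fold, adjusted p = 4.15e-06), by 2.38 ± 0.27 at 4 weeks (adjusted p = 0.00127) and by 1.74 ± 0.27 at 2 weeks (adjusted p = 0.00929). The 2-week call was lost without 2-week replicate 1 or 2 (adjusted p = 0.0918 and 0.0517). The endothelial marker mean ran in the same order of groups, at 5.29 and 4.90 in culture and 9.72 and 8.57 in quiescent cells, and its part in the Hpgd signal was not tested. Slco2a1, the prostaglandin uptake transporter gene, stood at 10.88 and 11.29 in culture, 7.33 and 8.06 at 4 weeks, 7.73 and 8.11 at 2 weeks, and 9.78 and 9.04 in quiescent cells. It rose 3.19-fold in culture (1.67 ± 0.31, adjusted p = 0.00417) and fell by 1.71 ± 0.31 at 4 weeks and 1.49 ± 0.31 at 2 weeks (adjusted p = 0.0107 and 0.0304). Cultured cells lay 9.69-fold above CCl4 cells (3.28 ± 0.27, adjusted p = 4.99e-05), the largest positive difference in that comparison among the members and the listed genes. The 4-week fall was lost without 4-week replicate 1 (adjusted p = 0.0944), and the 2-week fall without quiescent replicate 1 or either 2-week array (adjusted p 0.0814 to 0.215). The reductase genes Ptgr1 and Ptgr2, which act after Hpgd on oxidised prostaglandins, rose in culture by 2.10 ± 0.37 and 0.59 ± 0.13 (adjusted p = 0.00327 and 0.0128), and Ptgr2 was lost without quiescent replicate 2 or culture replicate 2 (adjusted p = 0.0531 and 0.0846). For Ptgr1 the changes at 4 and 2 weeks were 0.06 ± 0.37 and 0.33 ± 0.37.

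**Figure D5:**
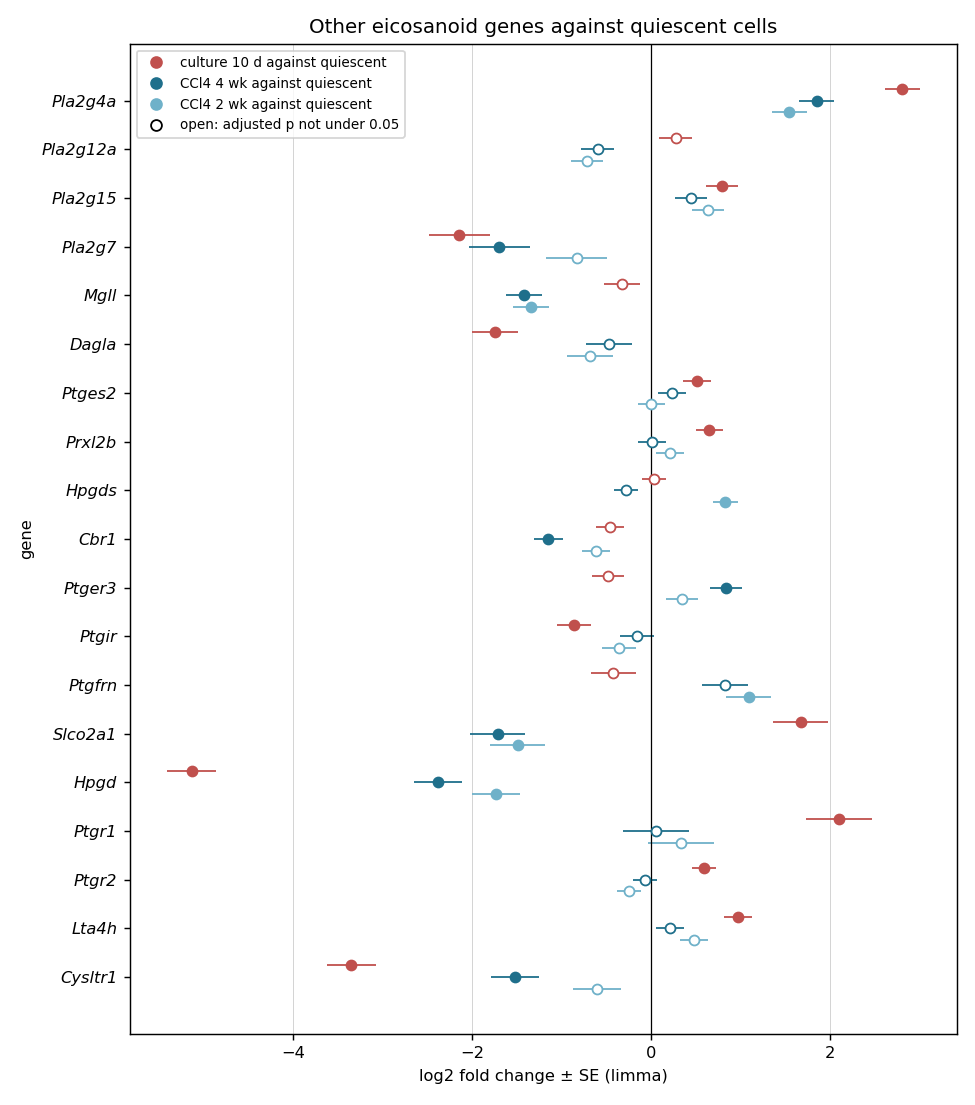
Log2 fold change ± SE (horizontal axis) against quiescent cells of the 19 other eicosanoid genes named by the rule, in culture and at 4 and 2 weeks of CCl4, with open points where the adjusted p was not under 0.05. Hpgd (-5.14) and Cysltr1 (-3.35) show the largest falls in culture, Pla2g4a (2.81) the largest rise, and Slco2a1 lies on opposite sides of 0 in culture (1.67) and after CCl4 (-1.71 and -1.49).

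In the neighbouring lipoxygenase branch, which makes leukotrienes from the same fatty acid, 2 of 11 measured genes were called in culture, where 23.2% of all genes were called, and 3 without culture replicate 2. Cysltr1, a cysteinyl leukotriene receptor gene, stood at 4.85 and 4.25 in culture, 6.60 and 6.17 at 4 weeks, 7.14 and 7.46 at 2 weeks, and 7.60 and 8.21 in quiescent cells. It fell by 3.35 ± 0.27 on the log2 scale in culture (adjusted p = 4.16e-05) and by 1.52 ± 0.27 at 4 weeks (adjusted p = 0.0103), with -0.60 ± 0.27 at 2 weeks. Its mean in culture, 4.55, lay under the 4.69 of the guide to background, so the size of the culture difference rests on a signal that could not be told from background. The 4-week call was lost without 4-week replicate 2 (adjusted p = 0.092). Lta4h, the leukotriene A4 hydrolase gene, rose in culture by 0.97 ± 0.16 (adjusted p = 0.002). The lipoxygenase gene Alox5 lay between 5.49 and 6.29 on all arrays.

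Each member called in any comparison was set beside the genes with the most similar pattern, measured as the root mean square difference between log2 values over the 8 arrays after each gene was centred on its own mean. Ptgs2 was nearest to Lox (0.44), S100a4 (0.61) and Fat1 (0.71). Ptgis was nearest to Pdgfrb (0.14), Kirrel (0.18) and Mylk (0.19). Ptger2 was nearest to Ackr1 (0.19), Podn (0.19) and Calcrl (0.28), and Ptger4 to Gpbar1 (0.31), Hilpda (0.32) and Has1 (0.40). The likeness to Lox is one of size as well as shape, with Lox at 11.23 and 11.18 in culture, 9.55 and 9.76 at 4 weeks, 10.17 and 9.92 at 2 weeks, and 5.59 and 5.33 in quiescent cells. These are descriptions over 8 arrays of 4 groups, chosen from 22180 genes, and arrays of a group share its condition.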

How the data were processed

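RNA from primary stellate cells of mouse liver was hybridised to 8 Affymetrix arrays, after preamplification and biotin labelling per the labels' protocols. The authors deposited log2 values, made with RMA in Expression Console, per the submitters' processing notes (no version is given in the sources used here). RMA quantile normalizes the arrays together, which would hide a shift common to most genes. Array medians ran from 4.63 to 4.72. For arrays, their number limits the precision.

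Of 41345 probe sets, the platform annotation named 1 gene for 23521 and several for 1814. The brightest single-symbol probe set stood for each of 22180 genes. Gene IDs were looked up in a RefSeq table (GRCm38.p6) to check symbols: 186 were missing there, and 0 symbols differed. Promoter windows, matched for 7 of 8 members, are from RefSeq. The script was tested on simulated data.

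Limma 3.58.1 (R 4.3.3; lmFit, eBayes) was fitted once to all 8 arrays with 4 groups, with 4 residual and 4.75 prior degrees of freedom. All tests were two-sided. Nothing in the labels says whether a group's arrays stand for different mice or dishes. The p-values therefore reflect the spread between these arrays alone, possibly a technical one. With 2 against 2, an exact permutation p cannot be smaller than 0.333, so none was computed. Members, 5 pathway lists, 10 marker lists, motifs and the naming rule were chosen with earlier results of these data known. The rule named all members, at most 4 called genes with the smallest p per pathway list and comparison, and the 3 genes most like each called member. Lipases, synthases, receptors, transport and breakdown, and the lipoxygenase branch formed the pathway lists, and stellate (quiescent, activated), hepatocyte, macrophage, endothelial, platelet, mast cell, mesothelial, lymphocyte, and neutrophil and monocyte genes the marker lists.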

Additional observations from a re-analysis of the deposited data

Results flagged for a closer look

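These results were picked out because a test of the difference itself showed that cultured and CCl4-activated cells, or the 2 CCl4 times, did not change alike (limma, adjusted p under 0.05). Between culture and the mean of both CCl4 groups, 4 members differed: Ptgs2 by 1.70 on the log2 scale, Ptgis by -1.54, Ptger2 by -1.11 and Ptger4 by -2.27. Ptgis and Ptger4 lay on opposite sides of the quiescent mean in the 2 settings. For both, the culture change against quiescent cells was not called (limma, adjusted p = 0.217 and 0.194). Nor was the 2-week change of Ptgis (adjusted p = 0.0839). Of the other named genes, Slco2a1 (3.28), Ptgr1 (1.91), Pla2g4a (1.11), Mgll (1.05), Pla2g12a (0.93, adjusted p = 0.00308), Ptgr2 (0.74), Lta4h (0.63) and Prxl2b (0.54) were higher in culture. Hpgd (-3.08), Cysltr1 (-2.29), Ptgfrn (-1.38), Dagla (-1.17), Ptger3 (-1.07) and Ptgir (-0.61) were lower in culture. Between the CCl4 times, Hpgds was lower at 4 weeks (-1.11). Cysltr1 and Ptger3 in culture and Hpgds at 4 weeks had means under 4.69, the 95th percentile of the guide to background, so the sizes of these differences are not exact. The same holds for Ptger2 and Ptger4, where culture replicate 2 (4.59) and culture replicate 1 (4.22) lay under 4.69. With 1 array left out, the calls of Lta4h, Ptgir, Prxl2b, Dagla and Hpgds were each lost in at least 1 fit, the Ptgir difference being -0.38 without culture replicate 2 (adjusted p = 0.268). Cultured and CCl4 cells also differ in seeding and in the levels of other cells' markers, and these cannot be told apart from culture itself.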

How the results depend on the processing

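Over 5 comparisons, the 7 members gave 270 values under 8 alternatives, of which 264 kept direction and side of the threshold and 6 lost a call, and 280 values with 1 array left out, of which 265 kept both, 12 lost a call and 3 gained one. No called value changed sign. The losses were those of Ptger4 and Ptgis against quiescent cells after CCl4. Adjustment over all probe sets also lost calls of other named genes. In the comparisons with quiescent cells these were Ptges2 in culture, Ptgfrn, Hpgd and Slco2a1 at 2 weeks, and Ptger3 and Pla2g7 at 4 weeks. Elsewhere they were Hpgds between 4 and 2 weeks and Ptgir between culture and CCl4. A fit of only the groups compared lost Ptges2 in culture, Ptgfrn, Hpgds and Slco2a1 at 2 weeks, and Pla2g7 at 4 weeks. Limma's trend and robust options lost Ptges2 in culture, and centring arrays on their medians lost Ptgfrn at 2 weeks. Some alternatives gained calls, among them Cbr1 in culture, Cbr1 and Pla2g12a at 2 weeks, and Ptges2, Cbr1 and Pla2g7 between culture and CCl4. Leaving out an array leaves a lone array in 1 group, which is assumed to vary like the others. The filter on genes with a mean over 5 left no value for Ptgds and Ptgfr. The number of all genes called moved by over 1.5 times in the following settings, for which the cause was not tested. At 2 weeks of CCl4 it was 337 adjusted over all probe sets, where more features share the correction, and 372 in a fit of only the groups compared, against 1058. At 4 weeks it was 929 and 1205, against 1932. Between 4 and 2 weeks it was 0 adjusted over all probe sets by limma (2717 of 41345 at an unadjusted p under 0.05), 30 with quantile normalization repeated (6 higher and 24 lower, against 6 and 13), 9 with the replicate block and 82 in a fit of only those groups, against 19. With 1 array left out the counts ran from 3505 to 4962 for culture, 260 to 1430 at 2 weeks, 652 to 2113 at 4 weeks, 0 to 85 between 4 and 2 weeks (at least 1204 at an unadjusted p under 0.05), and 2846 to 5225 for culture against CCl4. Repeated centring or normalization shifted the median change of all genes by at most 0.0727. Replicate numbers in the labels are not said to mark a shared animal or day, and the deviations of same-numbered arrays correlated by -0.042 to 0.074 over genes. With the replicate block, 5042, 906 and 1741 genes were called in culture, at 2 weeks and at 4 weeks, and among the members only the 2 Ptger4 calls against quiescent cells were lost.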
